A study of Mus musculus with 4 samples.

Results

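The immediate-early genes Egr1, Fos, Fosb, Jun, Junb, Atf3, Myc, Klf4, Ier2 and Dusp1 were followed across 4 mouse liver arrays. Members were all probes whose transcript accession on the array belongs to these 10 gene symbols, which gave 13 probes among 51780 usable probes and 10 of 22043 genes measured by a usable probe. Whole liver came from male mice in 4 groups with 1 array each: aging diabetic mice given astragalus polysaccharide (APS, a plant root polysaccharide) together with metformin, aging diabetic mice given metformin, a glucose-lowering biguanide, aging diabetic mice without a drug, and naturally aging mice. Per the labels, mice of every group were fasted for 12 hours and killed by neck dislocation on ice, and the livers were frozen in liquid nitrogen. The strain, age, doses and the way diabetes was produced are not given in the labels, the 60 days in the sample titles are not explained, and nothing says whether an RNA came from 1 mouse or a pool. The stated purpose of the series is the effect of the combined treatment on liver mRNA in aging diabetes.

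Immediate-early genes are transcribed within minutes of a stimulus, before new protein is made, because factors such as serum response factor, its ternary complex partners and CREB already sit on their promoters and are switched on by MAP kinases, calcium or cyclic AMP. Their mRNAs are short-lived, so their level follows the recent history of the tissue. In liver they are known to respond to partial hepatectomy, growth factors, cytokines, hypoxia, fasting hormones and the handling and dissection of the organ. The label of the group fits 8 of the 10 members, which encode DNA-binding factors; Dusp1 is a phosphatase that switches MAP kinases off, and Ier2 is a small nuclear protein.

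The promoters of 5 members are shown. Of these, 4 (Fos, Fosb, Klf4 and Dusp1) were at least 2-fold higher on the metformin than on the aging diabetic array, and Junb was not. The 5 were chosen for this contrast and because the matches they share are those of the pathway described above. They do not stand for all the higher members. Jun and Atf3 were also at least 2-fold higher and had a promoter, but theirs are not shown, and Jun held no match. Each run is the 250 bases before the transcription start, 5' to 3', from RefSeq on GRCm38.p6, and capitals mark the matches to the motifs named after the sequences. The windows are chr12:85473640-85473889 (plus strand) for Fos, chr7:19310046-19310295 (minus) for Fosb, chr4:55532476-55532725 (minus) for Klf4, chr17:26508473-26508722 (minus) for Dusp1 and chr8:84978749-84978998 (minus) for Junb.
Fos: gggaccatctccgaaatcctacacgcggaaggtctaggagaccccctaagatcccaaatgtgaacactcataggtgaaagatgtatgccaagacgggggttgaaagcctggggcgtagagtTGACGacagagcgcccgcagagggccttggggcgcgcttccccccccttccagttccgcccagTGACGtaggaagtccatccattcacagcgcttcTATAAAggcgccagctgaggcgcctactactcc
Fosb: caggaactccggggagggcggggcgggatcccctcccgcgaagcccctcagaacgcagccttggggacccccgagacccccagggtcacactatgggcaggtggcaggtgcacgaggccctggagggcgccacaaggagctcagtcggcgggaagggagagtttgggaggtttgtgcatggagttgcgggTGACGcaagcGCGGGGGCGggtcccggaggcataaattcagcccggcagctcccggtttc
Klf4: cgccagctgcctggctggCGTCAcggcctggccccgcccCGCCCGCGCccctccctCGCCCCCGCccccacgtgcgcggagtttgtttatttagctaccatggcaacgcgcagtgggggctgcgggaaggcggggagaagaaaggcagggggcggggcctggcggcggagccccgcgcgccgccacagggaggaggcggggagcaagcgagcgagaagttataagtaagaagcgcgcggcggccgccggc
Dusp1: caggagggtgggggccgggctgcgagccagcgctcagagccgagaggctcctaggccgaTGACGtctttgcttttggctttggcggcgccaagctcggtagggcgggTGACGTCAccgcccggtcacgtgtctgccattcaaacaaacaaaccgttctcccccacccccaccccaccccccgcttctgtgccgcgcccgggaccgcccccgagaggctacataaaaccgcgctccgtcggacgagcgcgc
Junb: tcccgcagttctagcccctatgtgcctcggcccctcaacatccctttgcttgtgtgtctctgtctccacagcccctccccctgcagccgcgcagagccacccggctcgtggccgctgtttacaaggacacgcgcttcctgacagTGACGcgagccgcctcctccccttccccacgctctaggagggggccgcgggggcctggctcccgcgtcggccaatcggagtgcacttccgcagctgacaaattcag

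RefSeq promoters were searched for 7 of the 10 members, the 5 above with Jun and Atf3. Those of Egr1, Myc and Ier2 were not searched, so nothing below describes them. The letters searched on both strands were the cAMP response element TGACGTCA, its 5-base core TGACG, which lies inside it, the AP-1 site TGANTCA, the EGR site GCGNGGGCG, the TATA box TATAAA and the CArG box of serum response factor. The 5-base core was in 6 of the 7 member promoters, against 17.8% of 32851 promoters of the same length. It lay 129 to 125 and 66 to 62 bases before the start of Fos, 60 to 56 before Fosb, 106 to 102 before Junb, 232 to 228 before Klf4, 191 to 187 before Dusp1 and 7 to 3 before Atf3. The whole element was in Dusp1 only, 143 to 136 bases before its start, against 1.55% of all promoters. An EGR site was in Fosb and Klf4 (2 of 7, against 4.70%), and the TATA box was in Fos (1 of 7, against 12.4%). Neither the CArG box (1.47% of all promoters) nor the AP-1 site (6.75%) was found in these 7 windows, and Jun held none of the 6 motifs. Sites more than 250 bases before the start lie outside the windows and were not searched. The GC content of the 7 windows was 58.4% to 74%, against a median of 52.4% over all promoters, and Junb, whose brighter probe was under 2-fold in all 6 comparisons below, held the same 5-base core as Fos and Fosb.

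All values below are log2 of the deposited processed signal minus the log2 of that array's 75th percentile, so that 0 is the 75th percentile of the array, and single probes are not set against each other, though lists are also given as sums of the unlogged scaled signal. Of 59305 non-control spots an array, 33668 to 37402 were well above background, and none was saturated. All 4 arrays lay on 1 slide read in 1 scan. Probes spotted 10 times varied by a median SD of 0.0620 to 0.0698 log2 within an array. With 1 array a group there are no replicates and no test was possible, so "higher" and "lower" describe pairs of arrays; a difference is given with the error of both spots, which covers measurement and not the spread between mice. Levels are said to lie within the interval of each other where the 95% measurement interval of their difference, built from these errors, holds 0. The hepatocyte markers, among them Alb, Ttr and Hnf4a, were well above background on every array (9 of 9 usable markers). In whole liver, fewer cells of a type and less RNA per cell cannot be told apart.

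Each of the 10 members had a probe well above background on all 4 arrays, and 11 of the 13 probes were so on every array. The aging diabetic array held the lowest value for 8 of the 10 members and the highest for none, whereas 20.4% of 12686 genes well above background on all arrays were lowest there and 21.8% were highest there. The metformin array was highest for 5 members (23.5% of all genes) and lowest for Junb (33.5% of all genes). Its step to the next array was within the measurement interval for Fosb (0.30), Klf4 (0.18) and Junb (0.32). So was the step up from the lowest level, on the aging diabetic array, for Atf3 (0.12) and Ier2 (0.06). The natural aging array was highest for Egr1, Junb and Atf3 (33.1% of all genes) and lowest for none (23.7%). Myc and Ier2 were highest on the APS plus metformin array (21.6% of all genes), and Jun was lowest there (22.4%), each by a step within the measurement interval; the second Myc probe was highest on the natural aging array. The lowest and the highest array were at least 2-fold apart for 8 members, the exceptions being Junb and Ier2, against 29.0% of all genes.

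**Figure D1:**
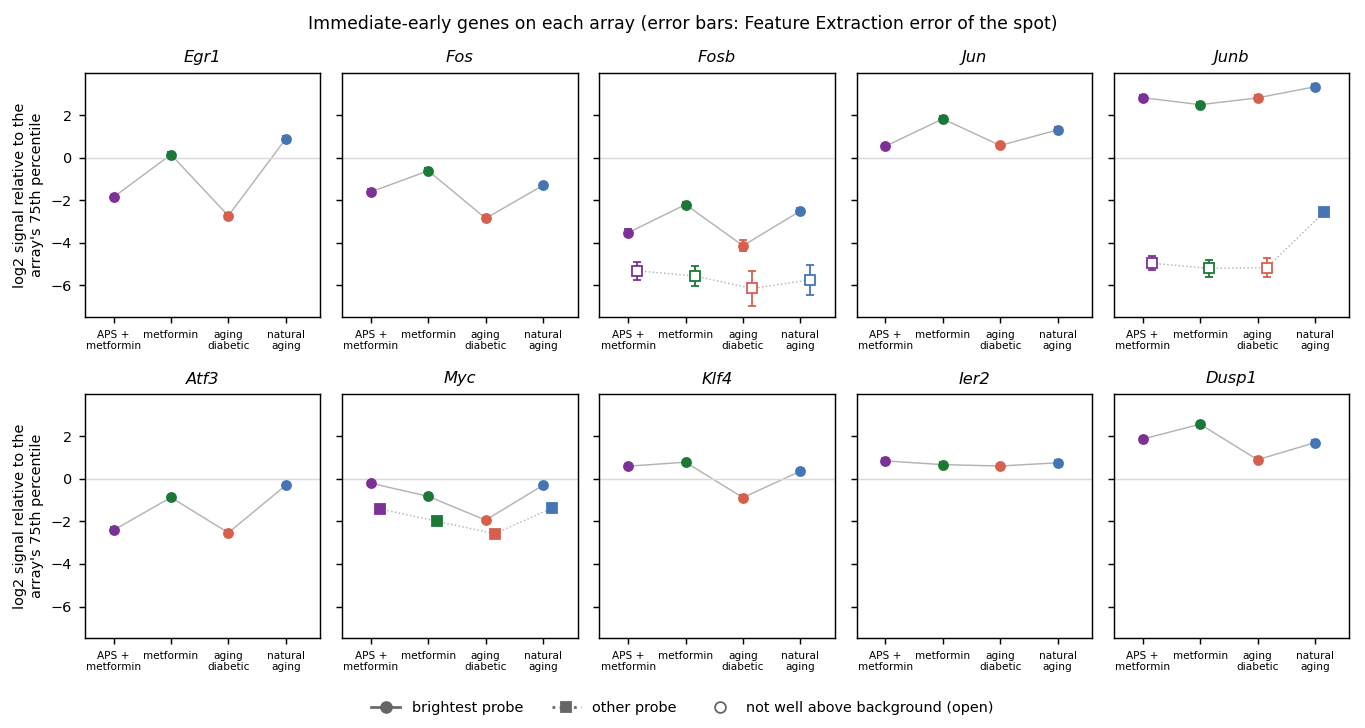
Level of each immediate-early gene on each array, as log2 of the processed signal relative to the array's 75th percentile (vertical axis), for APS plus metformin, metformin, aging diabetic and natural aging mice from left to right. Circles are the brightest probe of the gene, squares its other probe, open symbols spots not well above background, and bars the error that the image analysis gives for the spot. The aging diabetic point is the lowest of the 4 circles in 8 of 10 panels, and Ier2 is flat within 0.24.

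Egr1 encodes a zinc-finger factor that is among the first genes transcribed after a mitogen or stress signal. Its probe stood at -1.85 on the APS plus metformin array, 0.15 on the metformin array, -2.73 on the aging diabetic array and 0.89 on the natural aging array. Egr1 thus separated the arrays most of all members, with every step in the order natural aging, metformin, APS plus metformin, aging diabetic beyond its interval and a range of 3.62 (12.3-fold). The signals behind these values were 945.6, 3986, 463.6 and 5002 in the same order of arrays as the levels.

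Fos and Fosb encode partners of the JUN proteins in the AP-1 factor. Fos stood at -1.60 on the APS plus metformin, -0.61 on the metformin, -2.85 on the aging diabetic and -1.29 on the natural aging array. The metformin array was highest and the aging diabetic array lowest, and the APS plus metformin and natural aging levels were within the interval of each other. The brighter Fosb probe stood at -3.52, -2.20, -4.13 and -2.50 on the APS plus metformin, metformin, aging diabetic and natural aging arrays. It had the same order as Fos, with the metformin and natural aging levels within the interval of each other, and it was dim, with signals of 296.3, 782.9, 174.8 and 477.0 on those arrays. A second Fosb probe, at -6.14 to -5.31, was not well above background on any array.

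Jun and Junb encode the AP-1 subunits that pair with FOS proteins; JUNB is known as a weaker activator than JUN on many targets. Jun stood at 0.55 on the APS plus metformin, 1.83 on the metformin, 0.58 on the aging diabetic and 1.31 on the natural aging array. The metformin level was the highest and the APS plus metformin level was within the interval of the aging diabetic level. Junb stood at 2.83, 2.50, 2.82 and 3.34 on the APS plus metformin, metformin, aging diabetic and natural aging arrays. Between neighbours in the order, the step from natural aging to the next, 0.51, was the one beyond its interval, and Junb was the one member with its lowest level on the metformin array. A second Junb probe cleared the background on 1 array alone, natural aging, where it stood at -2.56, so that its signal was at least 4.86-fold lower on the APS plus metformin, 5.25-fold lower on the metformin and 4.58-fold lower on the aging diabetic array. Both probes thus put natural aging highest, but their differences were far from equal in size.

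Atf3 encodes a stress-induced bZIP factor of the ATF and CREB family. It stood at -2.41 on the APS plus metformin, -0.87 on the metformin, -2.53 on the aging diabetic and -0.30 on the natural aging array. The natural aging array was highest and the metformin array next, and the APS plus metformin and aging diabetic levels were within the interval of each other.

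Myc encodes a bHLH factor that drives growth genes, and Klf4 a zinc-finger factor linked to differentiation. The brighter Myc probe stood at -0.20 on the APS plus metformin, -0.82 on the metformin, -1.94 on the aging diabetic and -0.30 on the natural aging array, and the second at -1.41, -2.00, -2.58 and -1.37. Both probes were well above background on every array and put the aging diabetic level lowest and the metformin level next, with the APS plus metformin and natural aging levels within 0.10 of each other on the first probe. Klf4 stood at 0.60, 0.78, -0.88 and 0.36 on the APS plus metformin, metformin, aging diabetic and natural aging arrays. The aging diabetic array was the one set apart, by more than 1 log2 from each of the others. The local background of the Klf4 spot was 103, 142.5, 104 and 112, against array medians of 44 to 47, and the image analysis marked its background ring on all 4 arrays.

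Ier2 and Dusp1 are the members that are not classical DNA-binding factors. Ier2 stood at 0.84 on the APS plus metformin, 0.67 on the metformin, 0.60 on the aging diabetic and 0.76 on the natural aging array, and all neighbours in the order of its levels were within the interval of each other. Dusp1 stood at 1.87, 2.57, 0.90 and 1.71 on the APS plus metformin, metformin, aging diabetic and natural aging arrays. Its metformin level was highest and its aging diabetic level lowest, with the APS plus metformin and natural aging levels within the interval of each other.

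The aging diabetic array was first compared with the natural aging array. With 1 array a group and no ages in the labels, the part of diabetes in the difference was not tested. Of the 10 members, 6 were at least 2-fold lower and none higher on the diabetic side, whereas 6.09% of 14450 genes compared were lower and 8.20% higher. The 6 were Egr1 at -3.62 (error 0.184), Atf3 at -2.23 (error 0.179), Myc at -1.64, Fosb at -1.63 (error 0.287), Fos at -1.55 and Klf4 at -1.24. Dusp1 at -0.81, Jun at -0.73 and Junb at -0.52 were lower by less than 2-fold, and Ier2 at -0.15 was the only member whose interval held 0. By that criterion 9 members were lower and none higher, against 23.4% of all genes lower and 21.7% higher. The median of the members was -1.40, and that of all genes compared was -0.04. The second Myc probe was at -1.21, and the second Junb probe was at least 4.58-fold lower.

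The aging diabetic array is also one side of the next pair of comparisons, so that its low values enter all of them. On the metformin array, 8 members were at least 2-fold higher than on the aging diabetic array and none lower, against 11.9% of 15559 genes higher and 3.53% lower. Egr1 differed by 2.88 (7.35-fold), Fos by 2.24, Fosb by 1.94, Dusp1 by 1.67, Klf4 and Atf3 by 1.66 each, Jun by 1.25 and Myc by 1.12. The AP-1 genes thus ranged widely, since Junb stood at -0.32 with an interval of -0.64 to 0.00, and Ier2 stood at 0.06. The second Myc probe differed by 0.58, and the brighter one by 0.93 when arrays were scaled on their medians, both under 2-fold. The median of the members was 1.66, while the median of all genes was within 0.01 of 0.

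Under APS plus metformin, 3 members were at least 2-fold higher than without a drug (the aging diabetic array) and none lower, against 4.38% of 14731 genes higher and 6.90% lower. They were Myc at 1.74, Klf4 at 1.48 and Fos at 1.24. Dusp1 at 0.97 and Egr1 at 0.88 were just under 2-fold, and Fosb was at 0.61 with an interval of 0.01 to 1.21. For Jun at -0.03, Junb at 0.01, Atf3 at 0.12 and Ier2 at 0.24 the interval held 0. The median of the members was 0.74, and that of all genes 0.02.

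Between the treated groups, the APS plus metformin array was set directly against the metformin array. Here 4 members were at least 2-fold lower and none higher, against 12.4% of 15596 genes lower and 2.37% higher. They were Egr1 at -2.00 (error 0.169), Atf3 at -1.54, Fosb at -1.33 (-0.54 when averaged with its second, dim probe) and Jun at -1.28, and Fos at -0.99 was at the edge of the 2-fold limit. Myc went the other way at 0.62 on its brighter probe and 0.59 on the second, both beyond their intervals, and Junb was at 0.33. The interval held 0 for Klf4 at -0.18 and Ier2 at 0.18, and Dusp1 was at -0.70. The median of the members was -0.85, against -0.03 over all genes. Egr1, Atf3, Fosb and Jun were therefore lower, and Myc higher, on the array with APS than on the array with metformin alone, in these 2 RNAs.

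**Figure D2:**
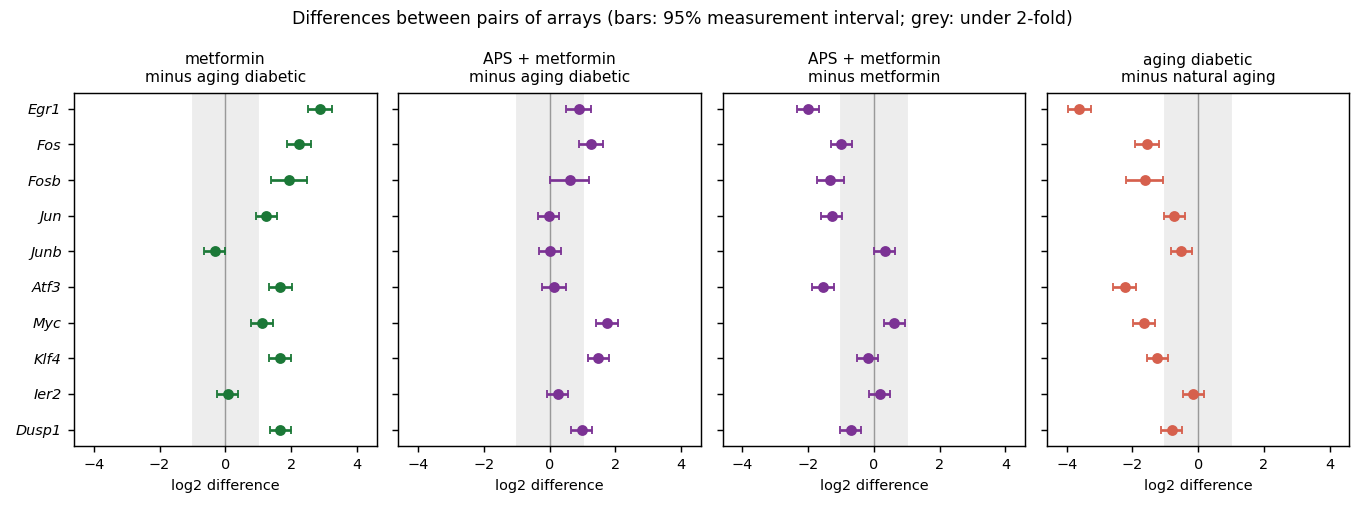
Log2 difference of each immediate-early gene (rows) in metformin minus aging diabetic, APS plus metformin minus aging diabetic, APS plus metformin minus metformin, and aging diabetic minus natural aging. Points are the brightest probe, bars the 95% measurement interval from the errors of both spots, and the grey band differences under 2-fold. In the first panel 8 points lie right of the band, in the third 4 lie left of it, and in the fourth 6 lie left of it.

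Set against natural aging, the treated arrays are described by how near each member lay to that level. On the metformin array no member was, by its brighter probe, 2-fold higher or lower than on the natural aging array, against 13.0% of 15545 genes higher and 4.71% lower, and the members ran from -0.84 (Junb) to 0.86 (Dusp1) with a median of 0.11, against 0 over all genes. Beyond the interval, 4 members were higher and 4 lower, against 25.7% and 26.7% of all genes. The second Junb probe was at least 5.25-fold lower, and the mean of both Junb probes was at -1.74. With arrays scaled on their medians Junb was past 2-fold at -1.09, and with quantile scaling Dusp1 was at 1.07. For APS plus metformin, Egr1 at -2.74, Atf3 at -2.11 and Fosb at -1.02 were at least 2-fold lower and none was higher, against 6.68% of 14631 genes lower and 6.14% higher. Fosb was at -0.82 after normexp background correction and at -0.30 as the mean of both probes. Jun at -0.76 and Junb at -0.51 were lower beyond the interval. Myc at 0.10, Klf4 at 0.24, Dusp1 at 0.16, Ier2 at 0.09 and Fos at -0.31 were within the interval of the natural aging level. These comparisons share the natural aging array with the first one.

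**Figure D3:**
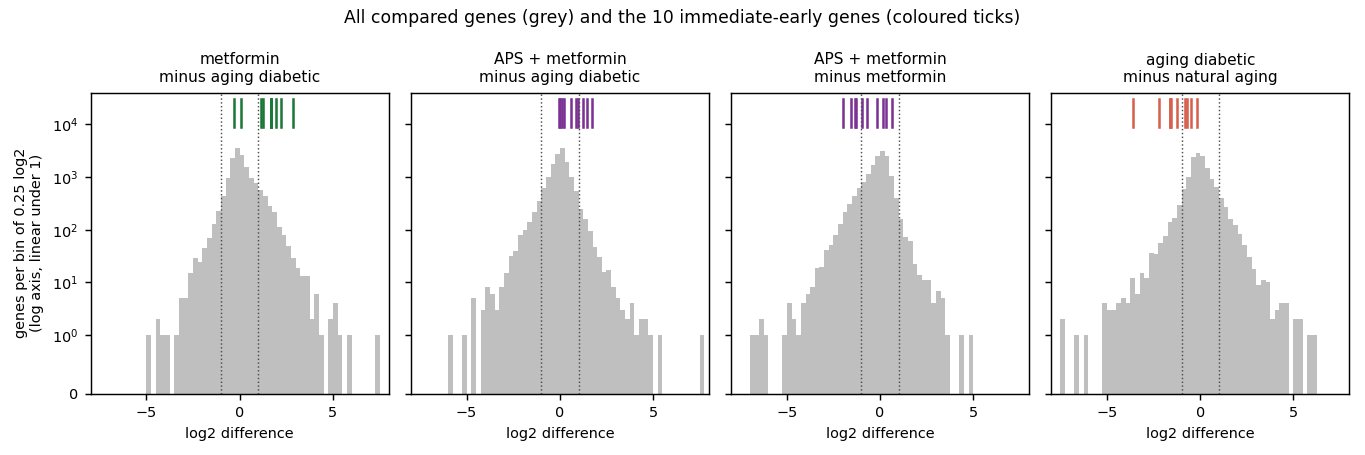
Distribution of the log2 difference over all genes compared (grey, genes per bin of 0.25 log2 on a log axis) for the 4 pairs of arrays, with the 10 immediate-early genes as coloured ticks and dotted lines at a 2-fold difference. In aging diabetic minus natural aging every tick lies below 0, and in metformin minus aging diabetic 9 of 10 lie above 0.

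The members were set beside a list of 40 other immediate-early genes, 33 of them with a usable probe. In aging diabetic against natural aging, 12 of 32 compared were at least 2-fold lower and 3 higher, with a median of -0.82. Over all genes, 6.09% were lower and 8.20% higher. Socs3, a feedback inhibitor of cytokine signalling, was at -2.62, the phosphatase gene Dusp2 at -2.09 and the small MAF factor Maff at -1.85. Ccn1, a matricellular protein gene, went the other way at 2.07. Egr3 and Dusp4, chosen after their values were seen, made up the 3 with Ccn1 and were well above background on the aging diabetic array only, at -2.83 and -3.05. Not all early genes were therefore low on that array, and the share of the list that was higher was near the share over all genes.

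On the metformin against the aging diabetic array, 7 of 33 of these other early genes were at least 2-fold higher and 2 lower (Egr3 and Dusp4). Their median was 0.34, and over all genes 11.9% were higher and 3.53% lower. Dusp2 was at 2.84, the orphan receptor gene Nr4a1 at 2.34, the zinc-finger factor gene Klf6 at 2.16 and Ccn2 at 1.39. In APS plus metformin against aging diabetic, 5 of 30 were higher and 3 lower (Egr3, Dusp4 and Gadd45a), against 4.38% and 6.90% of all genes. Their median was 0.21, and examples of the higher ones were Klf2 at 1.32, Dusp2 at 1.21, Ier3 at 1.17 and Csrnp1 at 1.15. Between the treated arrays, none of 31 was higher and 7 were lower with APS, against 2.37% and 12.4% of all genes. Among the 7 were Dusp2 and Klf6 at -1.63 each, Gadd45a at -1.54 and Nr4a1 at -1.23.

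The counts for genes acting before or after the immediate-early factors are read against the shares of all genes given above. Of the MAP kinases and serum response factors, 2 of 21 were at least 2-fold lower on the aging diabetic than on the natural aging array, the cAMP-responsive modulator gene Crem at -1.56 and the ternary complex factor gene Elk4 at -1.46 (6.09% of all genes were lower), and none of 21 was past 2-fold on the metformin against the aging diabetic array. Elk4 was also the 1 of 21 past 2-fold, and higher, on the APS plus metformin array against the aging diabetic one, and none of 20 was past 2-fold between the treated arrays. Of 18 MYC partners and targets, 2 were lower on the aging diabetic than on the natural aging array, the MAX partner genes Mxd1 at -1.24 and Mnt at -1.08. None of the 18 was past 2-fold on the metformin array against the aging diabetic array or between the treated arrays, and Cad, an enzyme of pyrimidine synthesis, was lower at -1.19 on the APS plus metformin against the aging diabetic array. Myc itself was at least 2-fold apart in 3 of these 4 pairs by its brighter probe.

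Of 14 ATF3 relatives and stress targets, 1 was higher and 2 lower on the aging diabetic than on the natural aging array, where the asparagine synthetase gene Asns was at -2.92, Chac1 at -2.69 and Trib3 at 2.04. On the metformin against the aging diabetic array 3 were higher and none lower, Asns at 2.70 and the bZIP genes Batf at 1.47 and Batf2 at 1.45. In APS plus metformin against aging diabetic, Asns was higher at 1.11 and 2 were lower (Ddit3 at -1.45 and Batf3 at -1.32). Between the treated arrays 5 were lower on the APS plus metformin array and none higher, against 12.4% and 2.37% of all genes, among them Batf at -2.13, Batf3 at -1.70, Asns at -1.59 and Batf2 at -1.55.

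**Figure D4:**
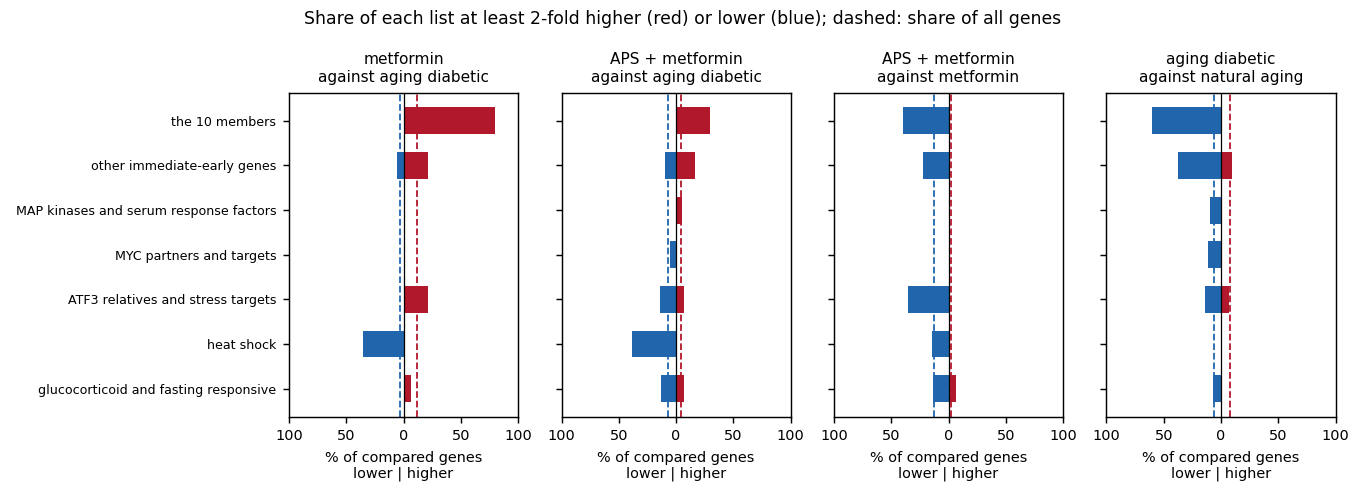
Share of the compared genes of each list (rows) that were at least 2-fold higher (right, red) or lower (left, blue) in the 4 pairs of arrays, in percent, with dashed lines at the share over all genes. The immediate-early members have 80% higher on metformin against aging diabetic, while the heat shock list has only lower genes in that pair.

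Markers of handling, stress and other cells were measured on the same arrays. Of the heat shock list, 5 of 14 genes were at least 2-fold lower on the metformin than on the aging diabetic array, and none was higher. Their median was -0.78, and over all genes 3.53% were lower and 11.9% higher. Hspa1a was at -3.02, the co-chaperone gene Hsph1 at -2.86 and Hspa1b at -2.74. For APS plus metformin against aging diabetic, 5 of 13 heat shock genes were lower and none higher, against 6.90% and 4.38% of all genes. Hspa1a was at -5.01, Hspa1b at -3.85 and Hsph1 at -3.28. None of 14 heat shock genes was past 2-fold in aging diabetic against natural aging, where their median was -0.33 and 6.09% of all genes were lower and 8.20% higher. Hspa1a stood at -3.22 on the APS plus metformin, -1.23 on the metformin, 1.79 on the aging diabetic and 1.83 on the natural aging array; it and Hspa1b are near-identical copies whose probes may share signal. The summed scaled signal of the list was 65.7, 59.2, 102 and 133 on those arrays, against 17.3, 21.5, 13.2 and 22.9 for the 10 members. The heat shock sum was therefore higher on both untreated arrays than on both treated ones. A sum is led by its brightest probes, which for the members were Dusp1 on the metformin array and Junb on the others.

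Of 15 glucocorticoid- or fasting-responsive genes, none was higher and 1 was lower on the aging diabetic than on the natural aging array. This was Pdk4, an inhibitor of pyruvate oxidation, at -2.35, and 8.20% of all genes were higher and 6.09% lower. On the metformin against the aging diabetic array 1 was higher and none lower. It was again Pdk4, at 1.82 on the metformin and -0.14 on the aging diabetic array, and 11.9% of all genes were higher and 3.53% lower. Against aging diabetic, the APS plus metformin array had 1 that was higher, the coactivator gene Ppargc1a at 1.69. On it 2 were lower, the clock gene Per2 at -1.33 and Cdkn1a at -1.05. The shares of all genes were 4.38% higher and 6.90% lower. Against metformin alone, Ppargc1a was higher at 1.29, and Cdkn1a at -1.52 and Pdk4 at -1.04 were lower, with APS. The shares of all genes were 2.37% higher and 12.4% lower. Counts of 1 or 2 of 15 are not read as a result about the list. The labels give no times or order of dissection. The part of handling, time to freezing, hour of death or feeding state in the immediate-early levels was not tested.

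**Figure D5:**
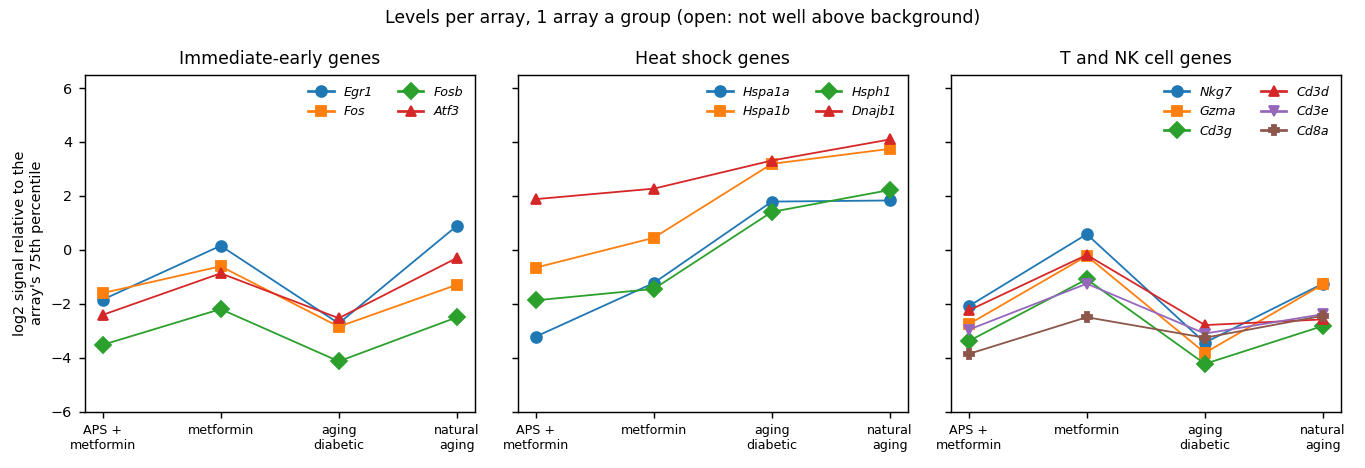
Levels on each array (log2 of the processed signal relative to the array's 75th percentile, APS plus metformin, metformin, aging diabetic and natural aging from left to right) of 4 immediate-early genes, 4 heat shock genes and the 6 T and NK cell markers well above background on every array. Each point is 1 array. Egr1, Fos, Fosb and Atf3 are lowest on the aging diabetic array, as are 5 of the 6 T and NK cell genes, all but Cd8a, and the 4 heat shock genes are lower on both treated arrays than on both untreated arrays.

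Marker lists of other cells also differed between the arrays. The summed scaled signal of the T, NK and B cell list was 0.928 on the APS plus metformin, 4.44 on the metformin, 0.623 on the aging diabetic and 1.57 on the natural aging array, in the same order of arrays as Fos and Fosb, with 6, 7, 6 and 6 of its 10 markers well above background. Single markers differed in order, since Cd8a stood at -3.86, -2.50, -3.26 and -2.44 on those arrays, and Cd3d at -2.25, -0.19, -2.79 and -2.58. Nkg7, a cytotoxic granule gene, stood at -2.09, 0.58, -3.44 and -1.25 on those arrays, while the natural killer gene Klrb1c and the B cell gene Cd79a were not well above background on any of them. The stellate cell and fibroblast sum was 26.2, 33.0, 19.1 and 31.8, also in the order of Fos and Fosb. The macrophage sum was 30.4, 43.6, 34.2 and 49.9. The neutrophil sum was 15.6, 14.7, 14.9 and 21.4, led on every array by its brightest marker, Csf3r. It does not describe the other neutrophil markers. In APS plus metformin against metformin the median of 6 neutrophil markers was -0.62, and only Csf3r was higher. Against natural aging, 5 of 8 neutrophil markers were at least 2-fold lower on the APS plus metformin array and none higher. The shares of all genes were 6.68% lower and 6.14% higher. Also lower there were 7 of 7 acinar, 3 of 8 macrophage and 3 of 6 erythroid markers. The same held for 2 of 6 T, NK and B cell and 2 of 8 stellate markers, with none higher in these lists. No endothelial or hepatocyte marker was past 2-fold in that pair. The endothelial sum was 24.2, 25.7, 20.6 and 30.2, in the order of arrays of Egr1 and Atf3. The erythroid sum was 32.2, 27.1, 24.9 and 37.6. The hepatocyte sum was 141, 111, 137 and 168. The pancreatic acinar sum was 4.76, 12.2, 7.44 and 48.8, high on the natural aging array. In metformin against aging diabetic, the comparison with most members past 2-fold, 6 of 7 T, NK and B cell markers were at least 2-fold higher (median 2.60). So were 5 of 8 stellate cell markers (median 1.46) and 5 of 8 acinar markers (median 1.56). None of these was lower, and over all genes 11.9% were higher and 3.53% lower. Of 8 macrophage markers 1 was higher and 1 lower, and of 8 neutrophil markers 1 was lower. Of 9 endothelial markers 1 was higher, as was 1 of 4 erythroid markers, and no hepatocyte marker was past 2-fold. Between the treated arrays, 7 of 7, 2 of 8 and 6 of 8 lymphocyte, stellate and acinar markers were at least 2-fold lower on the APS plus metformin array and none higher. Their medians were -2.06, -0.75 and -3.40, and over all genes 12.4% were lower and 2.37% higher. Also lower were 1 of 8 macrophage, 2 of 6 neutrophil and 1 of 9 endothelial markers, with none higher. In APS plus metformin against aging diabetic, 2 of 6 and 2 of 8 of the lymphocyte and stellate markers were higher and none lower, while 5 of 7 acinar markers were lower. Over all genes, 4.38% were higher and 6.90% lower. Of 8 macrophage markers 1 was higher and 1 lower, 2 of 8 neutrophil markers were lower, and 1 of 9 endothelial and 1 of 4 erythroid markers were higher. In aging diabetic against natural aging, 3 of 6, 2 of 8 and 6 of 7 of the lymphocyte, stellate and acinar markers were lower and none higher. Over all genes, 6.09% were lower and 8.20% higher. Also lower were 4 of 6 erythroid, 3 of 8 neutrophil and 1 of 8 macrophage markers, and 1 neutrophil marker was higher. In metformin against natural aging no member was past 2-fold by its brighter probe. There, 6 of 7 lymphocyte markers (median 1.13) and 1 of 8 stellate markers were higher and none lower. Lower were 6 of 8 acinar (median -2.56), 3 of 6 erythroid, 3 of 8 neutrophil and 1 of 8 macrophage markers, with none higher. No endothelial or hepatocyte marker was past 2-fold. The shares of all genes were 13.0% higher and 4.71% lower. The part of these cell types in the immediate-early levels was not tested.

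The genes whose pattern over the 4 arrays lay nearest to the median profile of the members, by the root mean square of the centred log2 difference over 12686 genes, were G2e3 at 0.0235, Art4 at 0.0434, Adamts2 at 0.0639, Adamts14 at 0.0772 and Gpr153 at 0.0779. The members' median profile, centred over the arrays, was -0.03 on the APS plus metformin, 0.71 on the metformin, -1.02 on the aging diabetic and 0.38 on the natural aging array. Among the nearest to Egr1 alone were Ttc39a at 0.276, Asns at 0.342, Obp2a at 0.400 and Gm38416 at 0.414. With 4 arrays many genes share any such order, and the list is a description.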

How the data were processed

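Total RNA of whole mouse liver was labelled with Cy5 and hybridized to 4 single-colour Agilent arrays, 1 a group. The deposited array files hold processed spot intensity, background-subtracted and detrended by Agilent Feature Extraction (11.5.1.1 per the file headers, 10.7 per the submitters' processing notes), with errors, local background and flags of 0 or 1. The deposited series table holds the authors' log2 values, normalized by a method not given in the sources used here; each column has a median of 7.84 and correlates best with its own array (r at least 0.9988 over genes, against 0.974 at most with another array).

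The log2 of the processed signal minus the array's 75th percentile (3406 on the APS plus metformin, 3589 on the metformin, 3068 on the aging diabetic and 2699.5 on the natural aging array) was used, with Python 3.11.15, numpy 2.4.6 and pandas 2.3.3. Spots with a feature outlier flag left out 4825 of 56605 probes. Background-ring outlier flags, on 41.1% to 46.5% of spots, were kept. Accessions were matched without version to RefSeq symbols for 33762 probes (22843 had none), and the probe brightest over the arrays stood for a gene. Genes well above background on at least 1 array of a pair were compared; "at least 2-fold" is a log2 difference of 1 or more. Where 1 array was not well above background, the bound used the probe's own signal or the array's lowest signal well above background, whichever was higher (log2 -4.84, -4.95, -4.75 and -4.52 on the arrays in the order above). There was no test. The number of arrays limits the precision.

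All members and every probe of theirs are named. Of other lists, up to 4 genes with the largest difference among those well above background on both arrays are named, and of cell lists up to 3; some genes that this rule names are not reported here. Members and lists were chosen with earlier results of these data known. Alternatives were median and quantile scaling, the authors' series table, normexp background correction (limma 3.58.1, offset 50, on the median spot signal, as no mean column was present), the mean of a gene's probes, outlier spots kept, and no bounds.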

Additional observations from a re-analysis of the deposited data

How the results depend on the processing

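No paired analysis was possible because each group has 1 array and every label carries the same replicate number; for the same reason no array could be left out. No member difference of 2-fold or more changed sign under any alternative run; signs turned only in values under 2-fold, of Ier2, Jun, Junb and Myc. The members' median moved to -1.16 with normexp for aging diabetic against natural aging, and to 1.48 with normexp, 1.47 with median scaling and 1.46 with the mean of probes for metformin against aging diabetic. For APS plus metformin against metformin it moved to -0.62 with the mean of probes and -0.68 with median scaling, and for metformin against natural aging to -0.14 with median scaling. In that last pair 1 member was at least 2-fold higher with quantile scaling (Dusp1, 1.07) and with the authors' deposited series table (Dusp1, 1.09), and 1 lower with the mean of probes (Junb, -1.74) and with median scaling (Junb, -1.09).

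Calls of single members that changed were Myc on metformin against aging diabetic (0.85 with the mean of probes, 0.93 with median scaling), Dusp1 on APS plus metformin against aging diabetic (1.06 with normexp), Fosb on APS plus metformin against metformin (-0.54 with the mean of probes) and against natural aging (-0.30 with the mean of probes, -0.82 with normexp), and Junb, with the mean of probes, on aging diabetic (-1.56) and APS plus metformin (-1.46) against natural aging. The mean of probes takes in the Fosb and Junb probes that were below background.

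Median scaling shifted the median of all genes by -0.19 for metformin against aging diabetic, 0.16 for APS plus metformin against metformin and -0.22 for metformin against natural aging. Of the genes at least 2-fold apart, the share that was higher was then 62.1%, 28.3% and 51.7% in these pairs, against 77.1%, 16.0% and 73.4% with the 75th percentile.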
